A study of Cucumis melo with 30 samples.

Results

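Fruit of 2 cultivars of oriental melon was compared at 15 days after anthesis (flower opening). Oriental melon is an East Asian form of Cucumis melo with a thin rind. The labels name the cultivars YMR-WF and HDB-OF (YMR and HDB from here on), and fruit of each was also collected at days 5, 25, 30 and 35. Each group held 3 RNA sequencing libraries, and no treatment is named, so the comparison of YMR with HDB at day 15 rests on 6 of the 30 libraries. The libraries were chosen by their titles, and all 18426 genes that passed a filter on low counts were tested, of 27427 in the table. The labels do not spell out the endings WF and OF, so which cultivar has orange flesh is not given in the sources used here. They give the tissue as fruit with no further detail. They also leave unsaid whether libraries sharing a group represent different plants, so a p-value below measures only the scatter of these samples, part of which may be technical.

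A melon fruit first grows by cell division and then by cell expansion, and later ripens as sugars accumulate, the flesh softens and aroma compounds form. Orange flesh in melon owes its colour to beta-carotene stored in chromoplasts, and white flesh holds little of it. Neither the flesh colour of the cultivars nor the identity of the tissue could be checked against marker genes here, because the gene identifiers carry no names. Of the 27427 identifiers, 0 matched a RefSeq table of 28628 melon genes (assembly USDA_Cmelo_AY_1.0), so genes are given by identifier with no function or position.

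Total counts at day 15 lay between 18260348 and 20456313 per library in YMR and between 19920619 and 23261097 in HDB. At least 10 counts were found for 16725 ± 35.1 genes in YMR and 16654 ± 248 in HDB (SD, n = 3 each). The factors that correct for composition (TMM) overlapped, at 1.06 to 1.19 in YMR and 1.08 to 1.17 in HDB. Replicates were less alike at day 15 than at any other day. The coefficient of variation between the 3 libraries of a group, beyond counting error, was 26.7% in YMR and 28.7% in HDB, against 9.07% to 20.8% in the 8 groups of the other days. Correlations of log2 CPM were 0.967 to 0.980 within YMR, 0.963 to 0.980 within HDB and 0.913 to 0.946 between the cultivars, so each library resembled its own group more than the other. Levels are given as CPM, counts per 1000000 after each library total was multiplied by its TMM factor.

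At day 15 the cultivars differed in a large part of the genes that were read, about as often in one direction as in the other, and mostly by less than 2-fold. With all 30 libraries sharing 1 estimate of the spread, 7537 genes (40.9% of those tested) passed edgeR's quasi-likelihood test at a Benjamini-Hochberg adjusted p under 0.05. Of these, 3765 (20.4%) were higher and 3772 (20.5%) lower in YMR. The median absolute log2 difference of the called genes was 0.78, and 2826 (15.3% of those tested) differed at least 2-fold. By fitted values at that size more genes were higher in YMR, 1652 against 1174 that were lower. This excess was absent from edgeR's test against a 2-fold null (glmTreat), which called 447 higher and 457 lower. By fitted values the counts were 601 higher and 493 lower at 4-fold or more, and 116 higher and 173 lower at 16-fold or more. The 3 YMR and the 3 HDB values did not overlap for 7762 genes (42.1%). Of the called genes, 3082 were higher and 3318 lower without overlap, and 1137 were called although the groups overlapped. The number called depends on where the spread is estimated. The coefficient of variation beyond counting error was 19.1% over all 30 libraries and 27.25% in the 6 of day 15. The p-values of the shared fit may therefore be too small at day 15. With the 6 day 15 libraries alone 3459 of 16870 genes were called, 1585 higher and 1874 lower, and 3415 of them were also called in the fit to 30 libraries. The genes named below for fitted fold stayed called with these 6 libraries, at edgeR adjusted p between 0.0015 and 0.025.

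**Figure D1:**
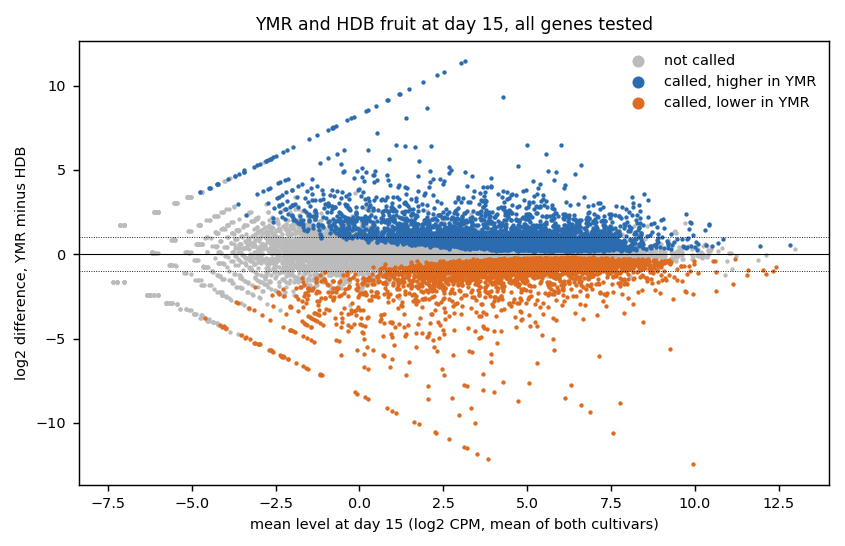
Each point is 1 gene tested, with its mean level at day 15 (log2 CPM, mean of both cultivars) on the horizontal axis and its log2 difference, YMR minus HDB, on the vertical axis. Blue marks the 3765 genes called higher and orange the 3772 called lower in YMR, dotted lines mark 2-fold, and 144 tested genes with no count at day 15 are left out. Most called genes lie inside or near the dotted lines, and the diagonal edges are genes with no count in 1 cultivar.

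The differences reached genes of every level. Among the 1905 genes with a mean of 100 CPM or more at day 15, 56.0% were called, and 28.3% of these differed at least 2-fold. Among the 2612 genes under 1 CPM, 17.5% were called, and nearly all of these (99.3%) differed at least 2-fold. Small differences can hardly pass the test at such low counts, so these shares do not compare the size of differences between levels. The direction of the calls varied with level. Under 1 CPM 272 genes were called higher in YMR and 185 lower, and at 1 to 10 CPM 1047 and 721. At 10 to 100 CPM 1953 were called higher and 2293 lower, and at 100 CPM or more 493 and 573. Together the genes called higher in YMR held 30.9% ± 3.79 of the counts in YMR and 16.8% ± 0.237 in HDB. Those called lower held 21.4% ± 1.72 in YMR and 37.0% ± 2.27 in HDB (SD, n = 3 each). Both lists were drawn from these same libraries, so the direction of these shares follows from the choice of genes. About equal shares, 47.7% ± 2.08 in YMR and 46.2% ± 2.04 in HDB, lay in the 10889 genes that were not called. In bulk fruit, fewer cells of a type and less RNA per cell cannot be told apart.

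Genes read in 1 cultivar and absent from the other were few. With a mean of at least 10 CPM in 1 cultivar as the condition, 3 genes had no count in any HDB library of day 15 and 5 had none in any YMR library. These 8 are named because they are few, after their values were seen. No count in a group allows a level of up to 0.0450 CPM in YMR and 0.0407 CPM in HDB (3 counts over the 3 libraries, for counting error only). A fold given below as "at least" is the mean of the other cultivar over this limit. It leaves out the spread between the libraries of that mean, so a single library can give a smaller fold.

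MELO3C012644 had 11.7, 29.9 and 11.9 CPM in the YMR libraries and no count in the HDB libraries, and was at least 438-fold higher in YMR (edgeR adjusted p = 2.3e-07). Its fitted log2 difference was 11.47, and 10.87 without YMR replicate 2. MELO3C018580 had 10.5, 20.5 and 18.1 CPM in YMR and no count in HDB, at least 402-fold higher (edgeR adjusted p = 8.0e-05). Among the called genes with at least 10 CPM in a day 15 group and no overlap, these 2 had the largest fitted fold toward YMR. MELO3C010327 was at 13.6, 10.1 and 10.6 CPM in YMR and at no count in HDB, at least 281-fold higher. All 3 genes were also read in YMR at the other days. MELO3C012644 had no count in HDB at any day, MELO3C018580 had 5 counts in HDB, all at day 25, and MELO3C010327 had 29 counts in HDB at day 5 and up to 14 at the later days.

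In the other direction, under the same conditions, MELO3C003990 had the largest fitted fold. It stood at 0.508, 0.276 and 0.257 CPM in YMR and at 2381, 2507 and 1072 CPM in HDB, a log2 difference of -12.46 (SE 0.47, edgeR adjusted p = 9.5e-11). All HDB libraries lay far above all YMR libraries. At the other days YMR held no count of this gene, while HDB averaged 352 ± 83.7 CPM at day 5, 51.3 ± 4.04 at day 25, 27.7 ± 6.91 at day 30 and 24.0 ± 4.62 at day 35. MELO3C009383 was next, with no count in YMR and 27.7, 53.2 and 4.60 CPM in HDB, at least 633-fold lower in YMR (edgeR adjusted p = 1.9e-06). The HDB values of this gene were spread widely, and all stood above the YMR limit. Its fitted log2 difference was -12.15, and -11.31 without HDB replicate 2. At day 5 neither cultivar had a count of it, and from day 25 on no group held more than 7 counts.

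The other 4 genes with no count in YMR at day 15 were of 2 kinds. MELO3C001286, at 14.7, 20.6 and 19.6 CPM in HDB, and MELO3C027293, with a mean of 12.8 CPM, were read in HDB at all 5 days, and over all days the YMR libraries held 0 counts of MELO3C001286 and 1 of MELO3C027293. MELO3C013293 and MELO3C026495 were read mainly at day 15 in HDB. MELO3C013293 had 46.8, 11.3 and 10.4 CPM there and no count in HDB from day 25 on. MELO3C026495 had 34.0, 10.8 and 7.82 CPM there, and in HDB its mean stayed at or under 1.18 CPM at the other days. At day 25 YMR held 131 counts of MELO3C013293 and 40 of MELO3C026495, and at days 30 and 35 YMR held no count of MELO3C013293 and 40 and 34 of MELO3C026495.

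**Figure D2:**
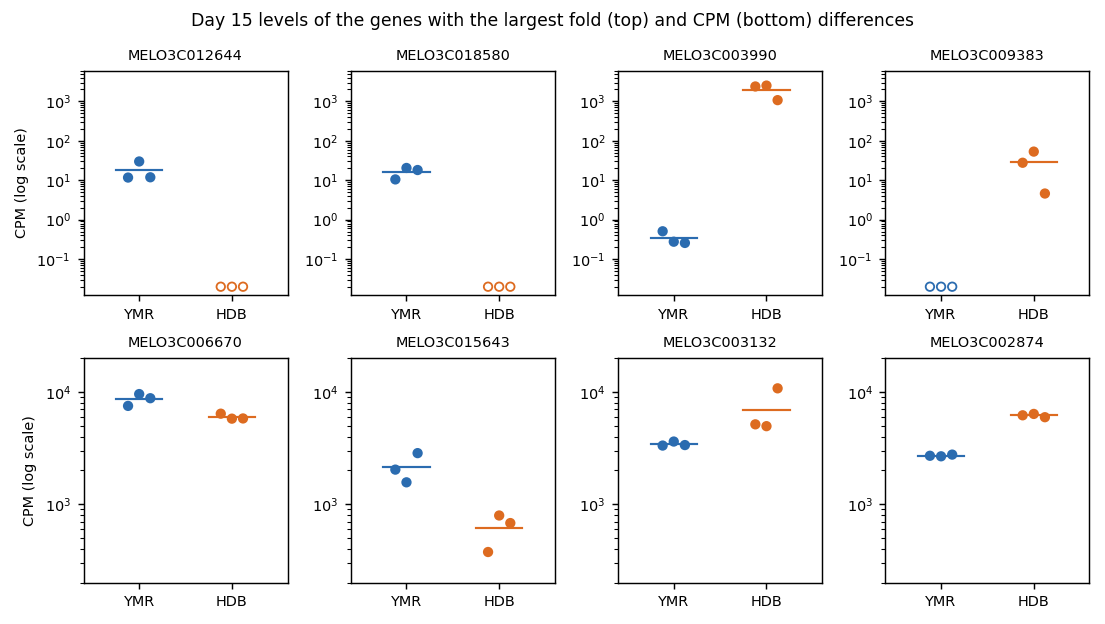
CPM at day 15 on a log axis, YMR on the left and HDB on the right of each panel, with 1 point per library and a bar at the mean of 3. Open circles at the foot of a panel are libraries with no count. The upper row shows the 4 genes named for fitted fold, 2 in each direction, which reach 2507 CPM in HDB against at most 0.508 CPM in YMR for MELO3C003990. The lower row shows the 4 genes named for difference in CPM, where the groups lie closer together. That the groups do not overlap was required by the rule for naming genes.

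By difference in CPM, the genes named are abundant and have modest folds. MELO3C006670 had 7487, 9541 and 8764 CPM in YMR and 6385, 5766 and 5790.5 CPM in HDB. Its log2 difference was 0.52 (SE 0.17, edgeR adjusted p = 0.015), a fold of 1.44. The groups did not overlap, as the rule for naming this gene required. Day 15 was its highest day in both cultivars, with no other group above the 2802 ± 659 CPM of YMR at day 5. The call was lost without YMR replicate 2 (log2 difference 0.44, edgeR adjusted p = 0.067) and with only the 6 day 15 libraries in the fit (edgeR adjusted p = 0.08).

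MELO3C015643 differed more, with 2029.6, 1565 and 2846 CPM in YMR and 376, 793 and 679 CPM in HDB (log2 difference 1.80, SE 0.44, edgeR adjusted p = 0.0025). The lowest YMR library lay well above the highest HDB library. At day 5 it averaged 656 ± 143 CPM in YMR and 1502 ± 195 CPM in HDB, which did not pass the test (log2 difference -1.19, SE 0.44, edgeR adjusted p = 0.053). At day 25 it averaged 137 ± 74.4 CPM in YMR and 4.46 ± 1.66 CPM in HDB, with YMR higher by a log2 difference of 4.94 (SE 0.52, edgeR adjusted p = 5.4e-08).

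Among the abundant genes that were lower in YMR, MELO3C003132 had 3324, 3608 and 3357 CPM in YMR and 5132, 4944 and 10726 CPM in HDB. The log2 difference of -1.02 (SE 0.25, edgeR adjusted p = 0.002) leaned on HDB replicate 3. Without that library it was -0.55 (edgeR adjusted p = 0.038), and with only the 6 day 15 libraries in the fit the call was lost (edgeR adjusted p = 0.079). MELO3C002874 was tighter, with 2696, 2667 and 2761 CPM in YMR and 6176, 6352 and 5939.8 CPM in HDB (log2 difference -1.18, SE 0.28, edgeR adjusted p = 0.0017), and leaving out single libraries kept it between -1.21 and -1.16. At day 25 the order of the cultivars was reversed, with 1882 ± 824 CPM in YMR and 647 ± 55.0 CPM in HDB (log2 difference 1.54, SE 0.28, edgeR adjusted p = 7.3e-05). MELO3C003132 was likewise higher in YMR at day 25, with 1707 ± 388 CPM in YMR and 663 ± 49.5 CPM in HDB (log2 difference 1.36, SE 0.25, edgeR adjusted p = 6.3e-05).

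The difference between the cultivars at day 15 was then set beside that at the other 4 days, which share no library with it. The spread of each gene was estimated over all 30 libraries, however, so the calls of different days are not independent. A gene of low spread or high counts is more easily called at every day. At each of the other 4 days only a minority of the day 15 calls were made again with the same sign. Of the 7537 genes, 986 (13.1%) were called with the same sign at day 5, where 21.8% of all genes were called, and 815 (10.8%) with the opposite sign. At day 25, where 48.3% of genes were called, 2846 (37.8%) had the same sign and 1347 (17.9%) the opposite one. At day 30, where 33.4% were called, 2249 (29.8%) had the same sign and 740 (9.82%) the opposite one. At day 35, where 47.7% were called, 1798 (23.9%) had the same sign and 2217 (29.4%) the opposite one. Over both directions together, opposite calls thus outnumbered same-sign calls at that day and at no other.

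As shares of the lists of the other days, the same-sign genes made up 24.6% of those called at day 5, 32.0% at day 25, 36.5% at day 30 and 20.5% at day 35. Taken over 18426 genes (no independent replicates), the log2 differences of day 15 correlated weakly with those of day 5 (r = 0.212), day 25 (0.300), day 30 (0.266) and day 35 (0.179). Day 15 was the only day called for 449 of the genes higher in YMR (11.9%) and for 609 of those lower (16.1%). At least 1 other day was called with the opposite sign for 1667 of the genes higher (44.3%) and 1765 of those lower in YMR (46.8%). Of all genes, 10.4% to 26.6% were called higher and 11.4% to 24.2% lower at a single one of these days. The shares of all genes with such patterns over several days were not counted. These percentages therefore do not show that reversals, or calls at 1 day only, were more frequent than over all genes. All 5 days were called with 1 sign for 86 genes higher and 94 genes lower in YMR.

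The 2 directions were also counted apart. At day 5 the same sign was called for 11.6% of the genes higher in YMR at day 15, where 10.4% of all genes were called higher, and for 14.6% of those lower, where 11.4% were called lower. Opposite calls at day 5 were made for 12.2% of those higher, more than the same-sign share, and for 9.46% of those lower. At day 25 it was called for 44.5% of those higher, beside 26.6% of all genes, and for 31.0% of those lower, beside 21.7%. Day 25 thus had the largest same-sign share for the genes higher in YMR, and also the largest share of all genes called higher. As a share of the genes called higher at the other day, the same-sign genes made up 34.2% at day 25 and 35.0% at day 30. At day 30 the shares were 29.0% of those higher, beside 17.0%, and 30.7% of those lower, beside 16.5%. At day 35 they were 24.6% of those higher, beside 23.5%, and 23.1% of those lower, beside 24.2%, so that both lists stood near the background. The contrast between the lists was not tested.

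**Figure D3:**
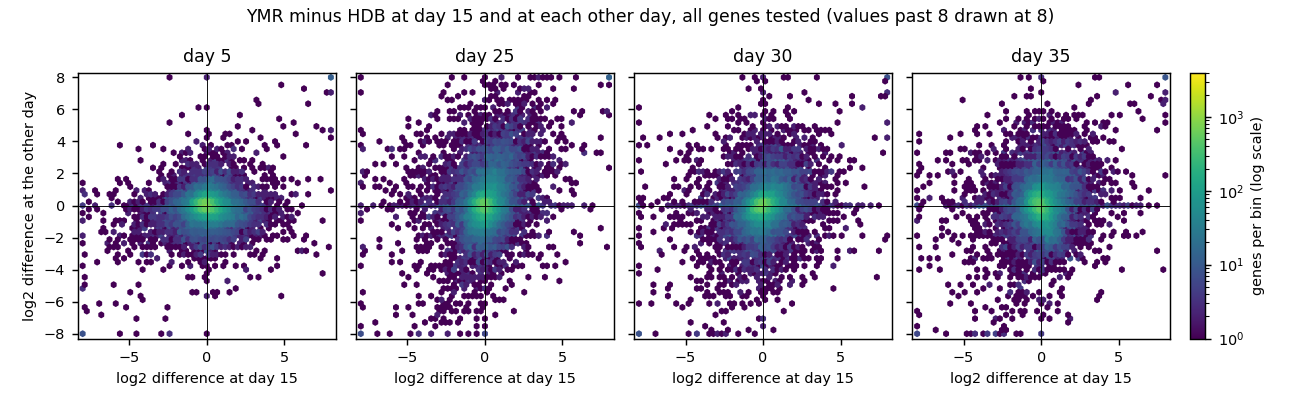
The log2 difference, YMR minus HDB, at day 15 (horizontal) is plotted against that at days 5, 25, 30 and 35 (vertical, 1 panel each) for all 18426 genes. Colour gives the number of genes per hexagon on a log scale, and values past 8 are drawn at 8. The clouds are only weakly tilted, with r between 0.179 at day 35 and 0.300 at day 25.

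The mean of the differences at the other 4 days was taken from that at day 15, and the result was tested. A gene can pass through its differences at the other days alone, so passing does not make a difference particular to day 15. In edgeR 7157 genes (38.8%) passed this test, 3524 toward YMR and 3633 toward HDB. With total counts in place of TMM factors the split was 4850 toward YMR and 2275 toward HDB, and that scaling put the median estimate of all genes at 0.19 on the log2 scale, against 0.01 with TMM. With TMM, 2084 (55.4%) of the genes called higher in YMR at day 15 passed toward YMR, where 19.1% of all genes did. Of those called lower, 2395 (63.5%) passed toward HDB, beside 19.7% of all genes. The tests share the day 15 libraries, so part of this overlap is built in. Day 15 was also the only day called for 239 of the former and 387 of the latter. A group with no count makes this contrast hard to determine in edgeR. Of 1801 genes with such a group at some day, edgeR called 145, while limma-trend, which gives these groups a finite level, called 582.

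Toward YMR, the genes named by the size of this estimate were MELO3C018937 and MELO3C007378. MELO3C018937 had 32.7, 25.6 and 30.7 CPM in YMR and 7.35, 7.86 and 9.56 CPM in HDB at day 15 (log2 difference 1.84, SE 0.34, edgeR adjusted p = 0.00017). At day 25 it stood at 5.42 ± 1.97 CPM in YMR and 522 ± 47.7 CPM in HDB, and HDB also stood higher at day 30, with 2.29 ± 0.418 CPM in YMR and 58.7 ± 22.5 CPM in HDB. At day 35 the means were 2.19 ± 1.43 CPM in YMR and 271 ± 78.0 CPM in HDB (log2 difference -6.94, SE 0.43, edgeR adjusted p = 1.6e-11). The differences at days 25, 30 and 35 were each larger in size than that at day 15. Day 15 was thus the only day at which this gene was called higher in YMR, and the difference minus the mean of the other days came to 6.48 (SE 0.50, edgeR adjusted p = 5.1e-09). MELO3C007378 reached 157, 176 and 53.1 CPM in YMR at day 15, against 1.02, 2.77 and 0.357 CPM in HDB (log2 difference 6.51, SE 0.87, edgeR adjusted p = 4.7e-06). At day 5 it averaged 18.7 ± 17.5 CPM in YMR and 10.7 ± 8.74 CPM in HDB, a difference that did not pass the test. It was also called higher in YMR at day 25, at 3.97 ± 2.16 CPM in YMR and 0.395 ± 0.106 CPM in HDB (log2 difference 3.31, SE 1.05, edgeR adjusted p = 0.011), and at day 35 both cultivars were under 1 CPM. The estimate against the other days was 5.60 (SE 0.98, edgeR adjusted p = 1.0e-04), and 6.66 without HDB replicate 2 of day 15.

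Toward HDB, MELO3C018878 and MELO3C007961 were high in HDB at day 15 and low in YMR. MELO3C018878 had 0.508, 0.0461 and 0.515 CPM in YMR and 478, 124 and 104 CPM in HDB (log2 difference -9.33, SE 0.68, edgeR adjusted p = 4.0e-09). No other group averaged more than 1.10 ± 0.366 CPM of it, the level of YMR at day 5. The estimate against the other days was -13.13 (SE 1.23, edgeR adjusted p = 1.1e-07). It came to -12.08 without HDB replicate 1 of day 15 and to -13.77 without HDB replicate 3 of day 25. MELO3C007961 had 0.0924, 0.323 and 0.686 CPM in YMR and 268, 127 and 21.4 CPM in HDB at day 15. At day 30 the order was the other way, with 41.4 ± 23.4 CPM in YMR and 2.997 ± 0.116 CPM in HDB (log2 difference 3.78, SE 0.76, edgeR adjusted p = 0.00051). Its estimate against the other days was -10.02 (SE 1.45, edgeR adjusted p = 1.2e-05), and the call was lost without YMR day 5 replicate 3 (-8.83, adjusted p = 1), since the 12 counts of YMR at day 5 lay in that library. It was -10.85 without YMR replicate 3 and -9.12 without HDB replicate 1 of day 15. In both genes HDB replicate 1 was highest and replicate 3 lowest at day 15. These libraries also lay farthest and least far along the course from day 5 to day 25 given below, and the part of this in the result was not tested.

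**Figure D4:**
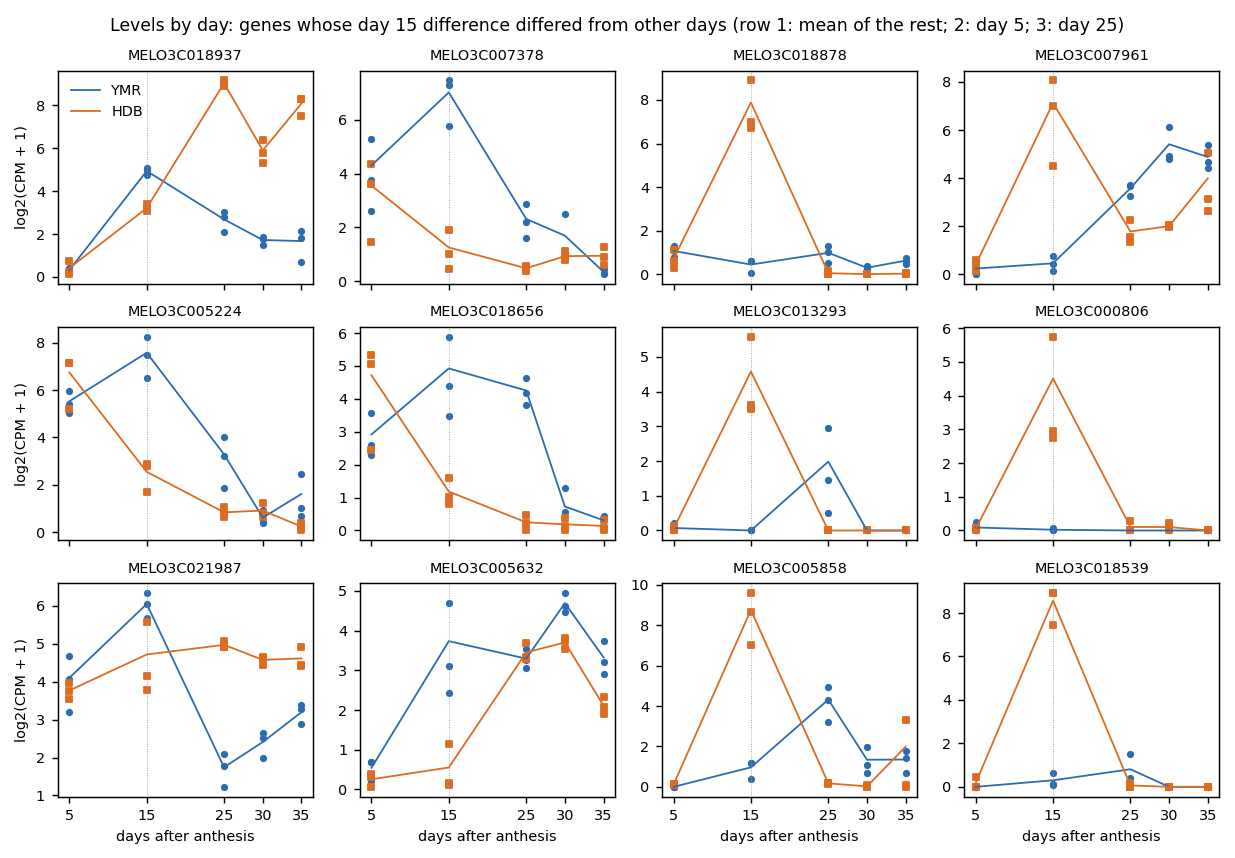
Levels of 12 genes at days 5, 15, 25, 30 and 35, as log2(CPM + 1), with 1 point per library and a line through the group means (YMR blue circles, HDB orange squares). The first row holds genes named for a day 15 difference unlike the mean of the other days, the second those unlike day 5 and the third those unlike day 25, and the dotted line marks day 15. MELO3C018878, MELO3C013293, MELO3C000806, MELO3C005858 and MELO3C018539 stand high in HDB at day 15 and near 0 in HDB at days 5, 25 and 30.

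Between day 5 and day 15 the difference between the cultivars moved for 6406 genes (34.8%, edgeR adjusted p under 0.05), 3269 toward YMR and 3137 toward HDB. With only the 12 libraries of these days in the fit the number was 4028. The genes named toward YMR had lower means in YMR at day 5, where the libraries of the cultivars overlapped. MELO3C005224 had 45.2 ± 15.3 CPM in YMR and 107 ± 61.3 CPM in HDB at day 5, which did not pass the test (log2 difference -1.24, SE 0.55, edgeR adjusted p = 0.11). At day 15 it had 176, 305 and 89.8 CPM in YMR and 6.33, 6.02 and 2.22 CPM in HDB (log2 difference 5.29, SE 0.66, edgeR adjusted p = 2.2e-06), and the change of the difference was 6.53 (SE 0.85, edgeR adjusted p = 9.5e-06). MELO3C018656 was lower in YMR at day 5, at 6.56 ± 3.68 CPM in YMR and 25.3 ± 18.3 CPM in HDB (log2 difference -1.95, SE 0.68, edgeR adjusted p = 0.044). At day 15 it was higher, with 19.8, 58.2 and 10.04 CPM in YMR and 0.745, 2.03 and 1.03 CPM in HDB, a change of 6.45 (SE 1.04, edgeR adjusted p = 9.1e-05), or 5.47 without YMR replicate 2 of day 15. In each of these genes every YMR library of day 15 lay above every HDB library of day 15, as the rule for naming genes required.

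The genes named for moves toward HDB were barely read at day 5. MELO3C013293, described above for its absence from YMR at day 15, held 4 counts in YMR and 2 in HDB at day 5, and the change of the difference was -12.51 (SE 4.45, edgeR adjusted p = 0.0496). At such counts the estimate depends on the prior count, and the call did not hold under DESeq2 (adjusted p = 0.15), without a low-count filter, under total-count scaling or in 11 of the 12 fits that left out a library. The estimate was -9.22 without YMR and -15.10 without HDB replicate 2 of day 5, and -11.43 without HDB replicate 1 of day 15, the only one of these fits that kept the call. MELO3C000806 had 5 counts in YMR and 2 in HDB at day 5. At day 15 it had a single count in YMR and 52.9, 5.68 and 6.71 CPM in HDB, a ratio of HDB to YMR of 1318 (exact 95% limits for counting error 236 and 52100). HDB replicate 1 held 1136 of the 1459 HDB counts, and without it the ratio was 412 (limits 73.4 and 16310). The change of its difference was -10.97 (SE 3.30, edgeR adjusted p = 0.018), and the call was lost without YMR day 5 replicate 2 (-7.40, adjusted p = 1). It was -12.72 without YMR replicate 1 and -9.15 without HDB replicate 1 of day 15.

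Between day 15 and day 25 the difference moved for 7629 genes (41.4%), 4225 toward YMR and 3404 toward HDB. The balance turned under total-count scaling, to 2369 toward YMR and 5857 toward HDB, with the median of all genes at -0.31 on the log2 scale, against 0.04 with TMM. Genes were named here only where the move opposed the day 15 difference, so that pattern in them follows from the rule. MELO3C021987 had 79.99, 50.6 and 65.2 CPM in YMR and 16.7, 12.7 and 46.6 CPM in HDB at day 15 (log2 difference 1.36, SE 0.37, edgeR adjusted p = 0.0052). At day 25 it averaged 2.35 ± 0.976 CPM in YMR and 30.4 ± 1.79 CPM in HDB, so it was higher in YMR at day 15 and lower at day 25, a change of -5.05 (SE 0.58, edgeR adjusted p = 5.7e-07), or -5.84 without HDB replicate 3 of day 15. MELO3C005632 had 4.39, 25.0 and 7.55 CPM in YMR and 1.21, 0.111 and 0.0794 CPM in HDB at day 15, and 8.80 ± 1.65 CPM in YMR beside 9.92 ± 1.78 CPM in HDB at day 25. Its difference of 4.8 at day 15 (SE 0.66, edgeR adjusted p = 6.1e-06) was no longer detectable at day 25 (-0.17, SE 0.51, edgeR adjusted p = 0.82), and the change was -4.98 (SE 0.83, edgeR adjusted p = 5.3e-05). HDB replicate 1 held 26 of the 31 HDB counts of day 15, and without it the change was -7.09. Without YMR replicate 2 of day 15 it was -3.94, and the call held in both fits.

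Moving the other way, MELO3C005858 had 1.25, 0.323 and 1.29 CPM in YMR and 770.1, 395 and 129 CPM in HDB at day 15 (log2 difference -8.81, SE 1.06, edgeR adjusted p = 2.3e-06). At day 25 it stood at 18.9 ± 10.6 CPM in YMR and 0.127 ± 0.0288 CPM in HDB (log2 difference 7.15, SE 1.32, edgeR adjusted p = 0.00012), a change of 15.96 (SE 1.62, edgeR adjusted p = 2.2e-07), or 15.24 without HDB replicate 1 of day 15. Each cultivar thus had its highest level of this gene at a different day, HDB at day 15 and YMR at day 25, with the HDB level far above that of YMR. MELO3C018539 had 0.0462, 0.0922 and 0.558 CPM in YMR and 478, 483 and 176 CPM in HDB at day 15. It held 35 counts in YMR and 3 in HDB at day 25, and the change of the difference was 14.46 (SE 1.86, edgeR adjusted p = 4.7e-05). It was 16.16 without YMR replicate 3 of day 15, 12.62 without YMR replicate 1 of day 25 and 17.55 without HDB replicate 2 of day 25, and stayed called in each.

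The day 15 fruit was also placed along the change from day 5 to day 25. A line was drawn through all genes from the mean of the day 5 libraries (position 0) to the mean of the day 25 libraries (position 1), both cultivars weighing equally and no day 15 library being used. The YMR libraries of day 15 lay at 0.412, 0.418 and 0.426 and the HDB libraries at 0.480, 0.441 and 0.392. The means of 0.418 ± 0.00726 in YMR and 0.438 ± 0.0439 in HDB (SD, n = 3 each) differed by less than the spread of the HDB libraries, and the HDB values enclosed all YMR values. With each cultivar measured on its own line the means were 0.426 in YMR and 0.422 in HDB.

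**Figure D5:**
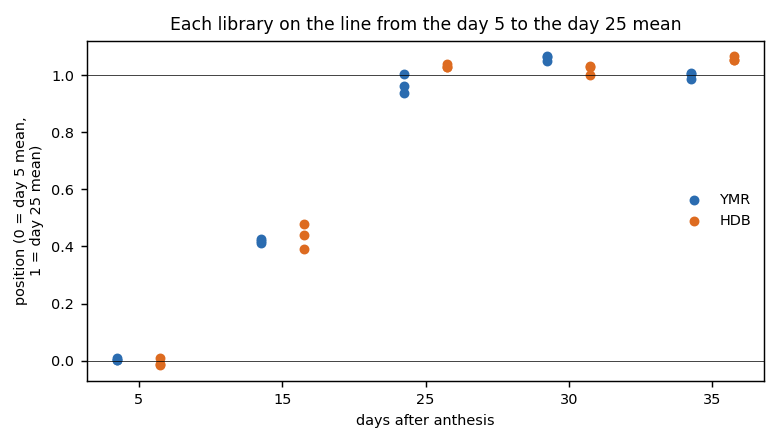
Position of each of the 30 libraries on the line from the day 5 mean (0) to the day 25 mean (1), by days after anthesis, YMR in blue and HDB in orange. At day 15 both cultivars lie at 0.392 to 0.480, and the HDB libraries are spread more widely than the YMR libraries. From day 25 on all libraries lie between 0.938 and 1.07.

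The genes that differed at day 15 were set beside their own change from day 5 to day 25, which comes from other libraries. With TMM scaling, the genes called higher in YMR at day 15 more often rose than fell over that span in YMR. In HDB they rose about as often as they fell. Mean TMM factors were 1.1996 at day 5 and 0.75945 at day 25 in YMR, and 1.1487 and 0.96935 in HDB. Scaling by total counts alone would thus lower the change in YMR, and lower it less in HDB. How far the shares and medians of rise and fall, here and below, depend on the scaling was not tested. From day 5 to day 25, 76.9% of all genes were called in YMR and 77.2% in HDB. In YMR 1976 of the 3765 (52.5%) rose and 1019 (27.1%) fell, where 36.6% of all genes rose and 40.3% fell. In HDB 1460 (38.8%) rose and 1485 (39.4%) fell, beside 34.7% and 42.5% of all genes. For the 1652 genes at least 2-fold higher in YMR, the median log2 change from day 5 to day 25 was 0.49 in YMR and -1.21 in HDB, and over all genes tested it was -0.09 in YMR and -0.16 in HDB.

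Of the genes called lower in YMR at day 15, more fell than rose from day 5 to day 25 in both cultivars, as over all genes. In YMR 1257 of the 3772 (33.3%) rose and 1686 (44.7%) fell from day 5 to day 25, and in HDB 1429 (37.9%) rose and 1559 (41.3%) fell. Their median log2 change was -0.21 in YMR and -0.07 in HDB. For the 1174 genes at least 2-fold lower in YMR, 27.6% rose and 46.9% fell in YMR, with a median of -0.72, and 35.2% rose and 44.0% fell in HDB, with a median of -0.44. At day 15 itself, genes that rose from day 5 to day 25 in both cultivars had a median difference of 0.05 on the log2 scale, genes that fell in both had -0.02, and all genes had 0.03. Of the 4675 genes that rose in both, 26.5% were called higher and 20.5% lower in YMR at day 15. Of the 5711 that fell in both, 14.6% were called higher and 21.4% lower.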

How the data were processed

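RNA was taken from melon fruit with Trizol and made into cDNA libraries by a standard Illumina procedure, per the labels' protocols. Per the submitters' processing notes, HISAT2 (for alignment) and HTSeq (for counting) were used. For these tools no version, and for the reads no genome build, annotation or counting mode, could be taken from the labels or headers. The table the authors deposited holds raw whole-number counts by gene, with library totals that differ. Strand is not stated, so overlapping or antisense genes and near-identical copies cannot be told apart.

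Groups came from the sample titles. Counts were analysed with edgeR 4.0.16 (limma 3.58.1, R 4.3.3): filterByExpr (minimum count 10, minimum total 15), TMM factors, 1 mean per cultivar and day over 30 libraries, and robust quasi-likelihood F tests, two-sided, Benjamini-Hochberg adjusted over all 18426 genes tested. SE is the absolute log2 estimate over the square root of F. Log2 CPM used a prior count of 2. No replicate pair was identical, and chi-square per degree of freedom within the day 15 groups was 40.4 to 118 over genes with 20 or more counts in the pair. All 3 libraries of a group were therefore kept as separate samples.

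Named genes were, per comparison, the 2 with the largest estimate in each direction (or the largest CPM difference) among called genes with at least 10 CPM in a day 15 group and no overlap, passing over genes already taken. In comparisons between days, the direction was that of the day 15 difference. The estimate had to share its sign, or for day 25 minus day 15 to oppose it. Gene lists by pathway could not be applied, as no identifier matched a name. The comparison, the lists and this rule were chosen with earlier results of these data known. Alternatives were RLE factors, total counts, DESeq2 1.42.0, no filter, a replicate block, only the days compared, a 2-fold null and each library left out. limma-trend and the 16-fold peak list were added after seeing the data.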

Additional observations from a re-analysis of the deposited data

Results flagged for a closer look

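The results named here were singled out because the difference between the cultivars, YMR minus HDB, itself differed between days by a test of that change in edgeR's quasi-likelihood fit. The change was called for 6406 genes between day 5 and day 15, for 7629 between day 15 and day 25, and for 7157 between day 15 and the mean of the other 4 days. Groups of 3 libraries are too small for a check of single outlying samples.

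Against the mean of the other days the log2 estimate was 6.48 for MELO3C018937, 5.60 for MELO3C007378, -13.13 for MELO3C018878 and -10.02 for MELO3C007961. Against day 5 it was 6.53 for MELO3C005224, 6.45 for MELO3C018656, -12.51 for MELO3C013293 and -10.97 for MELO3C000806. From day 15 to day 25 the difference changed by -5.05 for MELO3C021987, -4.98 for MELO3C005632, 15.96 for MELO3C005858 and 14.46 for MELO3C018539. The estimates of MELO3C018878, MELO3C013293, MELO3C000806 and MELO3C018539 involve groups with 5 or fewer counts.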

How the results depend on the processing

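The number of genes called at day 15 stayed between 7144 and 7822 under RLE factors, total counts, DESeq2, limma-trend, no low-count filter and the replicate block, and between 6141 and 7511 with each day 15 library left out. A 2-fold null (glmTreat) left 904, 447 higher and 457 lower in YMR. With only the days compared in the fit, 3459 genes were called at day 15, 1795 of them at least 2-fold, and 4028 for day 15 against day 5. The spread in those fits comes from fewer libraries, and the day 15 groups were the most variable. Leaving out single libraries gave 2324 to 3240 genes at least 2-fold different at day 15, 5192 to 6682 for day 15 against day 5, 6734 to 7706 for day 25 against day 15 and 6282 to 7184 against the mean of the other days. At a minimum of 1 CPM in place of 10, 22 genes had no count in HDB and 17 had none in YMR, and with up to 3 counts allowed 9 genes were read in HDB alone. Mean positions on the day 5 to day 25 line were 0.404 in YMR under total counts, and 0.357 in YMR and 0.354 in HDB with only genes of at least 10 CPM, and the cause was not tested. No estimate of a named gene changed sign under any alternative run.

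The labels do not say whether replicate numbers pair the libraries. At day 15, deviations from the group means correlated at -0.164, -0.0145 and 0.175 for numbers 1, 2 and 3. Between unequal numbers they correlated at -0.260 to 0.289. With 3 libraries per group these values cannot decide whether the libraries were paired. A fit with a replicate block called 7380 genes at day 15, and of the named genes only MELO3C013293 lost its call (adjusted p = 0.059).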

Other observations

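A small set of genes stood far higher in HDB at day 15 than in any other group. With a mean of at least 10 CPM and at least 16-fold above each of the other 9 groups as the condition, 12 genes peaked in HDB at day 15 and 0 in YMR at day 15. In the other groups the number was 6 in HDB at day 5, 1 in YMR at day 5, 1 in YMR at day 25 and 0 elsewhere. This list was chosen after its values had been seen and was given no test. At 4-fold in place of 16-fold, YMR had 19 genes at day 5, 23 at day 15, 84 at day 25, 2 at day 30 and 3 at day 35, and HDB had 24, 46, 10, 0 and 0, so YMR at day 25 then had the most. The 12 genes had means of 10.8 to 431 CPM in HDB at day 15, with MELO3C005858, MELO3C018539 and MELO3C018878 the most abundant.

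Summed over the 12 genes, YMR held 2.35 CPM at day 5, 4.89 at day 15, 22.3 at day 25, 2.15 at day 30 and 2.39 at day 35. In HDB the sums were 3.74 CPM at day 5, 1217 at day 15, 0.832 at day 25, 0.323 at day 30 and 3.26 at day 35. MELO3C005858 made up most of the YMR sum of day 25, with 18.9 ± 10.6 CPM, and the other 11 genes stayed at or under 1.10 CPM in every group but HDB at day 15. The 3 HDB libraries of day 15 were far apart, at 1980 CPM in replicate 1, 1189 in replicate 2 and 480.5 in replicate 3. Replicate 1 was highest for 9 of the 12 genes and replicate 3 lowest for 10. These libraries had the same order in position between days 5 and 25, at 0.480, 0.441 and 0.392, and the part of this in the result was not tested. Without replicate 1 the list held 9 genes, 8 of them among the 12, and without replicate 3 it held 17, all 12 included. For YMR at day 15 the count was 0 or 1 whichever day 15 library was left out.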
